A study of Arabidopsis thaliana with 24 samples.

Results

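CHLM, Z-ISO, SIRB and HEMA3 are enzymes of pigment and cofactor synthesis in the plastid, and their transcripts were compared between the sut2 mutant of Arabidopsis thaliana and wild type. They are 4 of the 691 genes that had an array probe annotated with exactly 1 gene, and each had 1 probe among the 3439 of the table. The probes were found by gene symbol, or by the locus numbers AT4G25080 (CHLM), AT1G10830 (Z-ISO), AT1G50170 (SIRB) and AT2G31250 (HEMA3). The 4 genes were selected on their pathway, with their mutant and wild type values on these same arrays already known, so every difference between the groups given for them is a description and carries no test. Wild type and the sut2 mutant are both of ecotype Wassilevskija, and total RNA was measured in both. Per the labels, the mutant lacks SUT2, a sucrose sensor or transporter in the plasma membrane, and no probe of the table was named SUT2. Each group has 12 columns, numbered 1 to 12. The labels give no tissue, age, growth condition or treatment, and none of 10 marker genes looked for (leaf mesophyll, root, flower and seed) had a probe of its own, so the tissue could not be checked. In bulk RNA, fewer cells of a type and less RNA per cell cannot be told apart.

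Tetrapyrroles are built in plastids from glutamate. Glutamyl-tRNA reductase, the enzyme family to which HEMA3 belongs, makes the first committed step toward 5-aminolevulinic acid, the precursor of chlorophyll, heme and siroheme alike. The siroheme branch leaves the trunk early and ends with SIRB, the ferrochelatase that inserts iron into sirohydrochlorin. Siroheme serves sulfite reductase and nitrite reductase, which assimilate sulfur and nitrogen. The chlorophyll branch begins with insertion of magnesium into protoporphyrin, and CHLM then methylates the magnesium protoporphyrin. Carotenoids come from a separate route, from geranylgeranyl diphosphate, and Z-ISO isomerizes a cis bond of zeta-carotene on the way to lycopene. Chlorophyll and carotenoids meet again in the photosynthetic pigment-protein complexes.

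Deposited intensities were linear, with a lower limit of 0. The median column intensity over all probes ran from 0.338 to 0.425 in wild type and from 0.231 to 0.284 in the mutant, so the columns were quantile-normalized on the log2 scale. Intensities under 0.00971 (the 1st percentile of the positive ones) were first raised to that floor. After normalization the median log2 difference over all probes, mutant minus wild type, was 0.10. It was -0.24 without normalization and 0.31 after median centring of the columns. Columns with consecutive numbers in a group resembled each other (correlation of deviations 0.12 to 0.55, median 0.32), and nothing says that the columns came from separate plants, so standard errors and p-values describe no more than the variation among the columns, and that may be technical.

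The mutant had higher normalized values of CHLM and Z-ISO, by means of 2.64-fold and 2.37-fold, little difference in HEMA3 and a lower mean of SIRB. For CHLM and Z-ISO much of this difference came from wild type columns with intensities at or near 0, and for SIRB from a pair of mutant columns near 0. By group medians, which such columns move less, the log2 difference was 0.71 for CHLM, 0.28 for Z-ISO, 0.05 for HEMA3 and 0.15 for SIRB. The mean differences also depended on the floor. With a floor at the 5th percentile they were 1.02 for CHLM and 0.87 for Z-ISO on the log2 scale, against 1.40 and 1.24. Mean deposited intensities of CHLM were 0.182 in wild type and 0.262 in the mutant, the latter raised by mutant column 6 at 0.996. Those of Z-ISO were 0.178 and 0.222. The deposited medians of CHLM were 0.159 in wild type and 0.193 in the mutant. For Z-ISO the deposited median was lower in the mutant, at 0.190 against 0.227 in wild type. In the fit to all probes (limma, Benjamini-Hochberg adjusted p under 0.05, 24 columns) 1 of the 4 passed, CHLM, beside 34.8% of all probes. After averaging consecutive numbers in each group (6 values a group), none of the 4 passed, beside 13.1% of all probes. Since the 4 were chosen with these values known, a pass or its loss describes the fit and tests no enzyme, here and below. The normalized columns of the groups overlapped for all 4, while they did not overlap at 2.85% of all probes.

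Along the branches, the mean log2 differences were 0.14 on the trunk (HEMA3), -0.57 on the siroheme branch (SIRB), 1.40 on the chlorophyll branch (CHLM) and 1.24 on the carotenoid branch (Z-ISO), with a median of 0.69 over the 4 beside 0.10 over all probes. Among the differences of all 3439 probes, those of CHLM and Z-ISO lay at the 98.4th and 97.3rd percentile, that of HEMA3 at the 52.9th and that of SIRB at the 19.4th. These places were part of what was known when the genes were chosen.

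**Figure D1:**
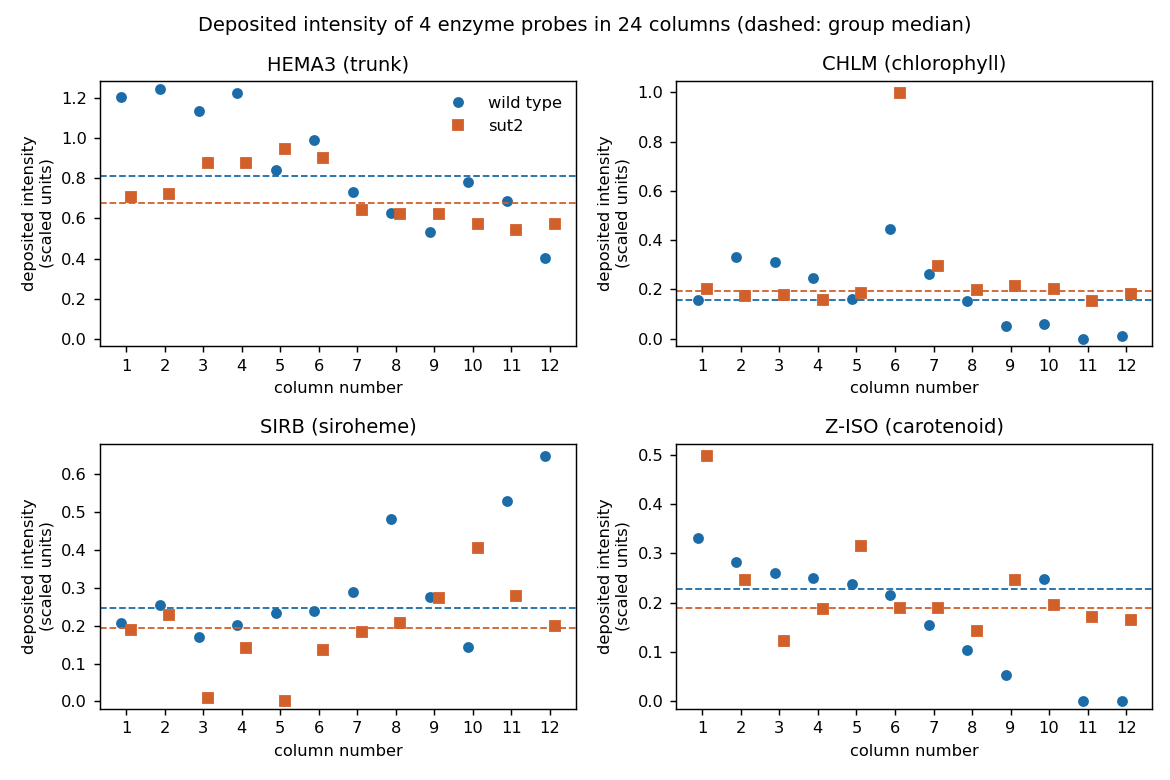
Deposited intensity (scaled units, linear axis) of the 4 probes against column number, with circles for wild type, squares for sut2 and dashed lines at the group medians. Wild type columns 11 and 12 lie at or near 0 for CHLM and Z-ISO, mutant columns 3 and 5 lie near 0 for SIRB, and HEMA3 has no value near 0.

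On the trunk, HEMA3 had deposited intensities from 0.401 to 1.24 in wild type with a median of 0.813. In the mutant they ran from 0.542 to 0.946 with a median of 0.676. The groups overlapped, with 5 wild type columns above the highest mutant column and 2 below the lowest. Wild type columns 1 to 4, at 1.21, 1.24, 1.14 and 1.23, were its highest, and column 12, at 0.401, its lowest.

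As deposited, HEMA3 was lower in the mutant in 9 of 12 numbers, and after normalization it was lower in 5 and higher in 7. Its mean normalized log2 value was -0.48 ± 0.66 over wild type and -0.33 ± 0.27 over mutant columns (SD, n = 12). The log2 difference of 0.14 ± 0.21 (SE) was smaller than the SD of either group. Its sign depended on the processing, at -0.22 without normalization, -0.12 with array weights and 0.32 with median centring. It also differed between the numbers, at -0.20 in numbers 1 to 6 and 0.49 in numbers 7 to 12. Its relatives HEMA1 and HEMA2 had no probe of their own here. Whether the HEMA3 probe also reads them was not tested.

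On the chlorophyll branch, CHLM had deposited intensities from 0 to 0.446 in wild type with a median of 0.159. In the mutant they ran from 0.153 to 0.996 with a median of 0.193. The 4 wild type columns 9, 10, 11 and 12, at 0.0515, 0.0606, 0 and 0.00922, lay below every mutant column, and no wild type column lay above the highest mutant column. The mutant's highest value was that of column 6, 0.996, and wild type column 6, at 0.446, was the highest of its own group. The other 11 mutant columns lay between 0.153 and 0.296.

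CHLM was higher in the mutant in 9 of 12 numbers, both as deposited and after normalization. The mean normalized log2 value was -3.34 ± 1.77 over wild type and -1.94 ± 0.70 over mutant columns (SD, n = 12), a log2 difference of 1.40 ± 0.53 (SE), or ± 0.69 with consecutive numbers averaged. That difference was smaller than the SD of wild type and larger than that of the mutant. By set of consecutive numbers, the log2 difference was 0.28 in numbers 1 and 2, -0.15 in 3 and 4, 1.11 in 5 and 6, 0.90 in 7 and 8, 1.97 in 9 and 10 and 4.31 in 11 and 12. The last of these values rests on wild type columns 11 and 12, both set to the floor. Without numbers 11 and 12 in both groups the log2 difference was 0.82 ± 0.36 and CHLM did not pass.

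The call of CHLM, a description and no test, was also lost on leaving out any 1 of wild type columns 9, 10, 11 and 12. The same held for any 1 of mutant columns 1, 5, 6, 7 and 8. The log2 differences were then from 1.09 to 1.41. Within numbers 1 to 6 alone the difference was 0.41 ± 0.43, and within numbers 7 to 12 alone it was 2.40 ± 0.73. It was 0.88 with array weights.

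On the siroheme branch, SIRB had deposited intensities from 0.142 to 0.647 in wild type with a median of 0.247. In the mutant they ran from 0.000116 to 0.404 with a median of 0.194. Mutant columns 5 and 3, at 0.000116 and 0.00837, were below the floor, and columns 4 and 6, next to them in number, were at 0.140 and 0.136. Wild type columns 12, 11 and 8, at 0.647, 0.530 and 0.482, lay above every mutant column.

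As deposited, SIRB was lower in the mutant in 11 of 12 numbers, the exception being number 10, whereas after normalization it was lower in 6 and higher in 6. Its mean normalized log2 value was -2.17 ± 0.60 over wild type and -2.74 ± 1.88 over mutant columns (SD, n = 12). The log2 difference of -0.57 ± 0.55 (SE) was smaller in size than the SD of either group. It was -0.21 without mutant column 3, -0.21 without mutant column 5, -0.20 with a floor at the 5th percentile and -0.21 with array weights. Without normalization it was -1.11 ± 0.53, and the difference of group medians after normalization, 0.15, had the opposite sign to the difference of means. It was -1.20 in numbers 1 to 6, which hold both columns below the floor, and 0.07 in numbers 7 to 12.

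On the carotenoid branch, Z-ISO had deposited intensities from 0 to 0.330 in wild type with a median of 0.227. In the mutant they ran from 0.122 to 0.497 with a median of 0.190. The mutant median was thus the lower as deposited, though 4 wild type columns lay below every mutant column. Those were columns 8, 9, 11 and 12, at 0.105, 0.0530, 0.00179 and 0, while wild type column 10, at 0.249, was close to columns 3 to 6.

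Z-ISO was higher in the mutant in 7 of 12 numbers as deposited and in 10 after normalization. The mean normalized log2 value was -3.27 ± 1.72 over wild type and -2.02 ± 0.55 over mutant columns (SD, n = 12), a log2 difference of 1.24 ± 0.50 (SE), or ± 0.67 with consecutive numbers averaged. That difference, too, was smaller than the SD of wild type and larger than that of the mutant. The set of numbers 11 and 12 differed by 4.32, and the other 5 sets by -0.18 to 1.11. Without numbers 11 and 12 the difference was 0.63 ± 0.28. It was 0.83 without normalization, 0.70 with array weights, 0.38 ± 0.29 in numbers 1 to 6 alone and 2.11 ± 0.75 in numbers 7 to 12 alone.

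Z-ISO did not pass in the 24 columns. It passed with the replicate number as a block (1.24 ± 0.43), as did 42.9% of all probes, but not with that block on averaged sets (± 0.54). It also passed on leaving out any 1 of wild type columns 1, 2, 3, 4, 5 and 10 (1.32 to 1.38), where 32.7% to 35.7% of all probes passed. Further passes came with a floor at the 5th percentile, median centring, the division of the numbers as a block, numbers 7 to 12 alone, and without numbers 3 and 4. In those settings 32.0% to 45.3% of all probes passed. These passes describe the fit and are no test of Z-ISO, which was chosen with its values known.

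**Figure D2:**
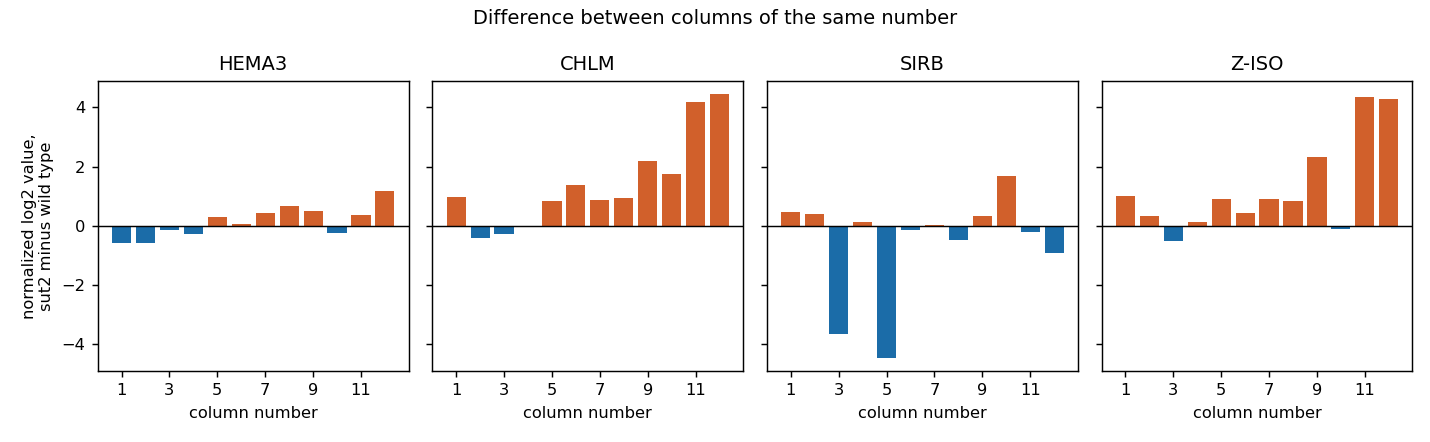
Normalized log2 value of the mutant column minus that of the wild type column with the same number, for each enzyme (one bar per number, shared vertical axis). CHLM and Z-ISO differ by more than 4 at numbers 11 and 12, SIRB by -3.64 and -4.45 at numbers 3 and 5, and HEMA3 by at most 1.17 in either direction.

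The 4 enzymes ranked differently in their spread between columns. In wild type the SD of CHLM (1.77) and Z-ISO (1.72) was at the 98.3rd and 97.8th percentile of all probes, where the median SD was 0.57. In the mutant their SDs were 0.70 and 0.55, near the median of 0.53 over all probes. SIRB showed the reverse, with an SD of 0.60 in wild type and of 1.88 in the mutant, the latter at the 97.8th percentile. HEMA3 had an SD of 0.66 in wild type and 0.27 in the mutant, where 12.3% of probes varied as little or less. Values at the floor enter the 3 large SDs, a pair of columns in each case.

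Within wild type, 3 of the enzymes were lower in numbers 7 to 12 than in numbers 1 to 6. The mean log2 value was lower by a difference of -2.22 for CHLM, -2.12 for Z-ISO and -1.10 for HEMA3, against a median of -0.07 over all probes, and 0.582% and 0.785% of all probes had a value as low as that of CHLM and of Z-ISO. SIRB differed the other way, by 0.68. In the mutant the same shift was -0.24 for CHLM, -0.40 for Z-ISO, -0.42 for HEMA3 and 1.96 for SIRB. The sign for each enzyme was thus the same in both groups. Over all probes, same-numbered columns of the groups also correlated in their deviations (median 0.21). The share of all probes with the same sign in both groups was not counted. The labels give no meaning to the division of the numbers. The group difference was higher in numbers 7 to 12 than in numbers 1 to 6 by 1.98 for CHLM, 1.71 for Z-ISO, 1.27 for SIRB and 0.69 for HEMA3 on the log2 scale. In a limma fit of this contrast to all probes (24 columns), given as a description like the differences themselves, it passed for none of the 4 and for 0.145% of all probes. With consecutive numbers averaged, it passed for none of the 4 either, and for 0.0291% of all probes. With so few passes over all probes, not passing cannot show that a difference was steady over the numbers.

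The deviations of the columns from their group means leave out the difference between the groups, but here they are not separate from it. Wild type columns 11 and 12, at the floor for both CHLM and Z-ISO, lower those wild type means and also give large deviations. The likeness of these 2 genes is thus no separate support for their differences. Over the 24 columns, the deviations of CHLM and Z-ISO had a Pearson correlation of 0.81 and a Spearman correlation of 0.59, given as a description because neighbouring columns are not independent. Without wild type columns 11 and 12 the Pearson correlation was 0.45 over 22 columns. Within the mutant alone it was 0.15, and within wild type alone 0.89, over 12 columns each. HEMA3 went with Z-ISO (0.76) and CHLM (0.72), or 0.62 and 0.56 without wild type columns 12 and 2. Within wild type these were 0.84 and 0.77, and within the mutant 0.17 and 0.39. SIRB ran opposite to HEMA3 (Pearson -0.47, Spearman -0.69), with -0.80 in wild type and -0.68 in the mutant. In wild type it also ran opposite to Z-ISO (-0.79) and CHLM (-0.62), whereas in the mutant these were 0.03 and 0.07. Over the 24 columns they were -0.22 (Spearman -0.51) and -0.15 (Spearman -0.34). All of these share the columns, their scaling and the floor.

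**Figure D3:**
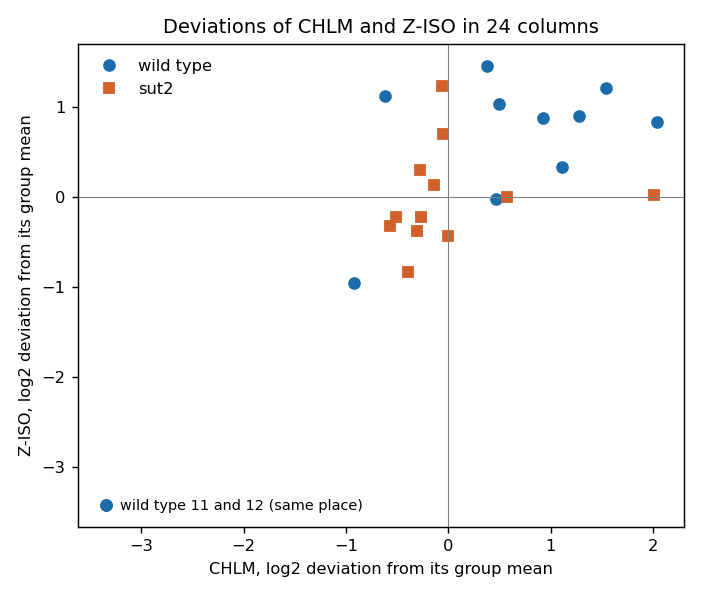
Log2 deviation from the group mean of Z-ISO (vertical) against that of CHLM (horizontal) in the 24 columns, with circles for wild type and squares for sut2. Wild type columns 11 and 12 fall on the same place at the lower left, and without them the Pearson correlation drops from 0.81 to 0.45.

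Among the genes with a probe of their own, those with deviations most like CHLM were Z-ISO, AT4G13550 (Pearson 0.78 over 24 columns) and AT4G14380 (0.76). Those most like Z-ISO were AT4G20690 (0.82), CHLM and AT4G14380 (0.81). For all of these the correlation was lower without wild type columns 11 and 12, at 0.74 for AT4G20690 with Z-ISO and from 0.40 to 0.55 for the others. HEMA3 was most like AT5G55580 (0.85), AT2G19280 (0.85) and AT4G14380 (0.82). SIRB was most like AT1G24530 (0.72), AT5G39410 (0.71) and AT1G64430 (0.71). A correlation of at least 0.7 was reached with 29 of 690 genes' probes by HEMA3, with 10 by Z-ISO, with 6 by CHLM and with 3 by SIRB, and 29 probes reached -0.7 or lower with HEMA3.

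Values of the probes next to the 4 in the table are given for comparison. The 10 nearest probes of CHLM had a median log2 difference of 0.49, with a highest value of 0.99, below the 1.40 of CHLM. The 10 nearest of Z-ISO had a median of 0.24 and a highest value of 1.20, against 1.24 for Z-ISO. Those of SIRB had a median of 0.45, from -1.81 to 1.16, and those of HEMA3 a median near 0, from -1.23 to 0.83. Whether the table's order is the order of the spots is not given.

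Few other genes of these pathways could be read. Of 94 further genes in 9 lists (the tetrapyrrole trunk, chlorophyll synthesis and breakdown, heme and bilins, siroheme and its users, the plastid isoprenoid pathway, carotenoid synthesis and cleavage, and tocopherols and prenylquinones), 3 had a probe of their own and 5 lay on probes with several genes, which were not read. None of the 3 passed in either direction in the 24 columns by limma, where 34.8% of all probes did. With the replicate number as a block 1 of the 3 passed, beside 42.9% of all probes, and none with that block on averaged sets, beside 22.1%.

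AT1G74470, annotated as geranylgeranyl reductase, supplies phytyl chains to chlorophyll and tocopherol. Its deposited intensity ran from 2.86 to 4.04 in wild type (median 3.31) and from 2.75 to 4.76 in the mutant (median 3.66), and the groups overlapped. Its log2 difference was 0.00 ± 0.11 (SE, limma adjusted p = 0.98), against 1.40 for CHLM on the same branch. It depended on the processing, at 0.66 with median centring (adjusted p = 0.00011) and -0.36 with probe position removed (adjusted p = 0.027). In those settings 45.3% and 31.9% of all probes passed.

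AT5G63290, from the trunk list, ran from 3.43 to 4.66 in wild type (median 4.21) and from 1.78 to 5.03 in the mutant (median 3.97). AT5G63290 was lower in the mutant in 9 of 12 numbers and in all 6 sets after normalization, and in 7 of 12 numbers as deposited. Its log2 difference was -0.27 ± 0.12 (limma adjusted p = 0.075). The sign turned with median centring, to 0.41 (adjusted p = 0.026), and it passed as lower with the division of the numbers as a block (adjusted p = 0.044). In those settings 45.3% and 40.6% of all probes passed.

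AT1G78620, from the tocopherol list, ran from 0.192 to 1.28 in wild type (median 0.493) and from 0.0724 to 1.57 in the mutant (median 0.948). It was higher in the mutant in 10 of 12 numbers after normalization and in 9 as deposited. Its log2 difference was 0.71 ± 0.47 (limma adjusted p = 0.25). It did not pass with consecutive numbers averaged, whether blocked by number (adjusted p = 0.13) or not (0.46). In the columns it passed when blocked by number (adjusted p = 0.031) and within numbers 1 to 6 (0.88, adjusted p = 0.0058). It also passed without mutant column 12 (1.01, adjusted p = 0.048) and without numbers 11 and 12 (0.98, adjusted p = 0.044). In those settings, in the same order, 42.9%, 19.4%, 34.5% and 28.9% of all probes passed. Like HEMA3, CHLM and Z-ISO, AT1G78620 was lower in numbers 7 to 12 than in 1 to 6, by a shift of -1.67 within wild type and -1.95 within the mutant. The same shift was 0.10 and 0.34 for AT5G63290, and 0.15 and -0.33 for AT1G74470.

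**Figure D4:**
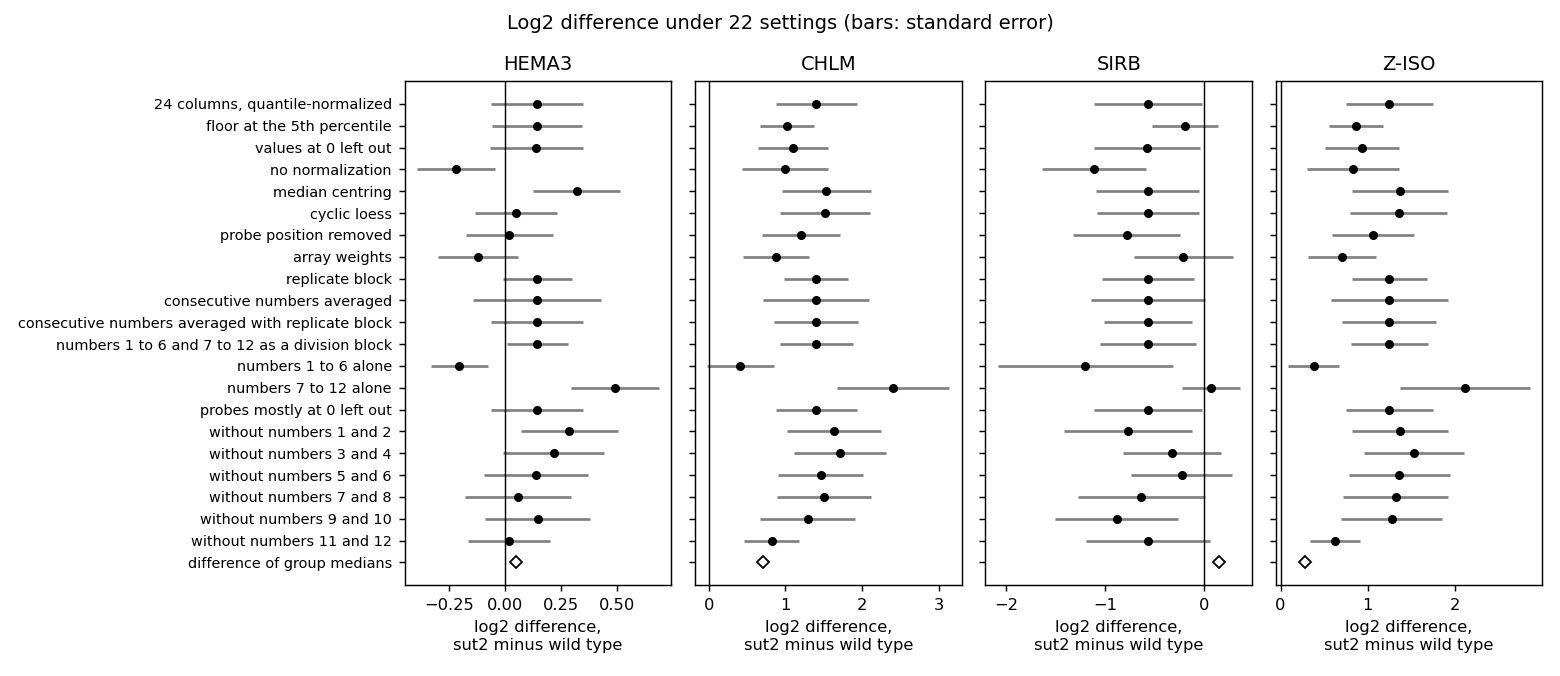
Log2 difference, mutant minus wild type, of each enzyme under 22 settings of the processing, with bars for the standard error (each panel has its own horizontal axis). CHLM and Z-ISO are above 0 in every setting shown, with the lowest value of CHLM in numbers 1 to 6 alone (0.41) and of Z-ISO for the group medians (0.28), while HEMA3 and SIRB take both signs. Blocks and averaging can change the standard error but not the difference itself.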

How the data were processed

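The deposited table holds linear intensities, which appear scaled per column by the authors; how images were analysed, background corrected, dyes used and values scaled is stated in no source used here. Columns were grouped and numbered from their titles. Low intensities were raised to the 1st percentile of the positive ones, and log2 values were quantile-normalized between columns, so a shift of most transcripts in the same direction would not be seen. No measure of background was used. limma 3.58.1 in R 4.3.3 (lmFit and eBayes, group as the only term, two-sided) was fitted to all 3439 probes in 24 columns, with Benjamini-Hochberg adjustment over all probes and a threshold of 0.05. The steps were tested on simulated data. The simulated columns were drawn independently, unlike the real ones, so that test cannot give the error rate of the fit to the 24 columns. A single gene was annotated for 692 probes, several for 870 and none for 1877, and 690 of the 692 matched a table of TAIR10.1 genes, used for names only. No coordinates or sequences are given, since the sources used here name no build for the probes. Same-numbered columns of the groups correlated in their deviations at all 12 numbers (0.14 to 0.40), so the number was used as a block in an alternative; the pairing comes from the data, not a label. The genes and pathway lists were chosen with earlier results of these data known. Named genes are the 4 enzymes, all measured genes of the lists and, for each enzyme, the 3 genes with the most similar deviations.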

Additional observations from a re-analysis of the deposited data

Results flagged for a closer look

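On averages of consecutive numbers, 6 in each group, the 4 enzymes and the 3 other pathway genes were searched for a value far from the others of its group. In wild type, numbers 11 and 12 lay far below the other sets for Z-ISO, with a gap of 0.737 of the whole range. Both of these columns were raised to the floor, so the gap depends on where the floor was put. In the mutant, numbers 3 and 4 lay far below the other sets for AT5G63290, with a gap of 0.726 of the range. By Dixon's criterion (0.625 for 6 values) chance alone would single out about 1 in 20 such groups, and 14 were searched. The genes were chosen with earlier results of these data known, so that rate need not hold for them.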

How the results depend on the processing

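CHLM and Z-ISO stayed above 0 in each of the alternatives tried, from 0.41 to 2.40 and from 0.28 to 2.11 on the log2 scale. HEMA3 (-0.22 to 0.49) and SIRB (-1.20 to 0.15) took both signs. Blocks, averaging and leaving out probes mostly at 0 keep the mean differences as they are by construction, so these could not turn a sign. Group medians were compared only after normalization among the alternatives. As deposited, the median of Z-ISO was lower in the mutant (0.190) than in wild type (0.227). The count of the 4 enzymes past the threshold, 1 in the reported setting, was 2 with a floor at the 5th percentile, median centring, the replicate block, the division of the numbers as a block, numbers 7 to 12 alone, or numbers 3 and 4 left out, settings in which 32.0% to 45.3% of all probes passed. It was 0 with the values at 0 left out, no normalization, probe position removed, array weights, consecutive numbers averaged with and without the replicate block, numbers 1 to 6 alone, or any of the sets 5 and 6, 7 and 8, 9 and 10, or 11 and 12 left out, settings in which 13.1% to 34.6% of all probes passed. Leaving out 1 column gave 0 to 2, beside 31.6% to 35.7% of all probes. The count of the 3 other pathway genes, 0 as reported, was 2 with median centring. It was 1 with probe position removed, the replicate block, the division block, numbers 1 to 6 alone or without numbers 11 and 12. In these settings 19.4% to 45.3% of all probes passed. On leaving out 1 column the count was 0 to 1. Over all probes, 1196 passed, 1559 with median centring, 1477 with the replicate block, 1397 with the division block, 1277 with a floor at the 5th percentile, 668 in numbers 1 to 6 alone, 449 with consecutive numbers averaged and 759 with these paired by number. The cause of these changes was not tested. The sets left out and the group medians were chosen after seeing the data. The number of arrays and the many values near the floor limit the precision.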
